A study of Mus musculus with 16 samples.

Results

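Heart microRNAs were compared between mice given 1 day of exposure to an aggressor mouse followed by 1 day of rest (T1R1) and control mice. The comparison took the 4 T1R1 samples and the 4 control samples out of 16 in the series, chosen by their labels, and covered all 1023 mouse probes of the array. All animals were C57BL/6 mice, an inbred laboratory strain, and each sample was total RNA of a single heart per the labels. T1R1 mice were confined in a mesh box placed in an aggressor's cage for part of the day and were also put directly with the aggressor for short bouts of attack. Control mice sat in such boxes too, in a large cage without an aggressor mouse. The other exposed groups had 2 days (T2R1) or 3 days (T3R1) of exposure and the same rest, with 4 samples each. The length of exposure comes from the group codes and the design text, because the treatment text describes a longer schedule. Control samples are titled C2R1, a code that is not spelled out, so the schedule of the controls relative to T1R1 is not known.

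Each array carried 2 hearts of a single group, of which one was labelled with Hy3 (green) and the other with Hy5 (red), so each group lay on 2 arrays. Slide numbers fell into 2 runs, with T1R1 and T2R1 in run 2, and T3R1 and control in run 1. For T1R1 against control, the slide run and the group cannot be told apart. The landing lights, bright spots that mark the grid and bind no sample RNA, read 24239 and 27772 on the T1R1 arrays against 15369 and 15952 on the control arrays. Among mouse probes above background, the raw signal in T1R1 was 1.21 times that in control in Hy3 and 1.13 times in Hy5 at the median, before any scaling. A mouse probe was called above background in a sample if its signal passed the 95th percentile of the 143 human virus probes. That held for 192, 220, 185 and 244 mouse probes in T1R1 replicates 1 to 4, and for 187, 199, 179 and 212 in control replicates 1 to 4. The means of 210 ± 27.1 in T1R1 and 194 ± 14.4 in control (SD, n = 4 each) gave p = 0.371 in a 2-sided exact permutation test, with 0.0286 the smallest that 70 regroupings can give. The test takes no account of dye, and the Hy5 sample had the higher number on all 4 arrays. By dye, the groups overlapped in Hy3 and T1R1 lay above control in Hy5. In bulk tissue, fewer cells of a type and less RNA per cell cannot be told apart.

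MicroRNAs are short RNAs that guide the silencing machinery to messenger RNAs, mainly by pairing through the seed, bases 2 to 8 from the 5′ end. A precursor hairpin gives a guide strand and a usually scarcer partner, written with a star in the array's names. Heart muscle is rich in the muscle microRNAs miR-1, miR-133, miR-208 and miR-499, and the let-7 and miR-30 families are abundant there too. The let-7 family is known for restraining growth and pluripotency genes, and the miR-30 family has been tied to connective tissue growth factor in the heart.

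Of the 12 microRNAs called different (limma adjusted p under 0.05), 8 had a mature sequence in RefSeq, shown here because the seed, in capitals, decides which messenger RNAs a microRNA can pair with. Positions are on the mouse build GRCm38.p6.

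miR-30a: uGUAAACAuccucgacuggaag
let-7a: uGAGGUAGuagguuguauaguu
miR-582-3p: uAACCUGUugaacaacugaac
miR-149: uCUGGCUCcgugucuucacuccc
miR-24-1*: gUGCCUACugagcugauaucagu
miR-883a-5p: uGCUGAGAgaaguagcaguuac
miR-690: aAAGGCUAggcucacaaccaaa
miR-503*: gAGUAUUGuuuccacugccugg

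The miR-30a strand lies at chr1:23272274-23272295 on the plus strand, and the listed let-7a copy, that of Mirlet7a-1, at chr13:48538239-48538260 on the minus strand. Mir582 lies inside the span of Pde4d, with miR-582-3p at chr13:109324790-109324810 (plus). Gpc1 spans miR-149 at chr1:92850381-92850403 (plus), Aopep spans miR-24-1* at chr13:63301213-63301235 (plus) and Fgf12 spans miR-690 at chr16:28599940-28599961 (minus). On the X chromosome, miR-883a-5p lies at chrX:66780803-66780824 (minus), and miR-503* lies at chrX:53053987-53054008 (minus) in the long noncoding RNA C430049B03Rik. The gene spans used carry no strand, so host and neighbour are not separated. No 2 of these 8 share a seed. let-7a shares its seed with 10 other RefSeq microRNAs, miR-30a with 3 (miR-30c, miR-30e and miR-384-5p), miR-24-1* with 1 and the remaining 5 with none in the RefSeq table used, which does not cover every microRNA. miR-30b and miR-30d had no sequence there and are not in the count.

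After 1 day of exposure, miR-30a and let-7a were 1.60-fold and 1.43-fold higher than in control, and miR-133a*, miR-24-1*, miR-503*, miR-149, miR-690, miR-883a-5p and, against a single control value, miR-720 were also higher, of which miR-149, miR-24-1* and miR-503* turned negative with scaling to spike-ins. Lower were miR-467a*, miR-1186b and miR-582-3p, a direction that turned to higher when each array was shifted to a common median (median scaling). These were 12 of 1021 tested probes (1.18%) at a limma adjusted p under 0.05, with 9 higher (0.881%) and 3 lower (0.294%), and 88 had an unadjusted p under 0.05. The split followed the scaling between arrays, at 7 higher and 600 lower with no such step, 195 higher and 6 lower with median scaling, and 9 higher and 897 lower with scaling to spike-ins. The differences are on the log2 scale of normalised signal, and their median standard error was 0.0578 over all tested probes and 0.0890 over the 200 tested probes that were above background in 4 or more of the 8 samples. limma made no call when both samples of an array were averaged, or from Hy3 alone or Hy5 alone (62, 96 and 93 at an unadjusted p under 0.05). In the fit as reported, the median difference was 0.00958 over all tested probes, of which 573 were positive and 448 negative. Over the 200 it was 0.0398, with 122 positive and 78 negative.

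**Figure D1:**
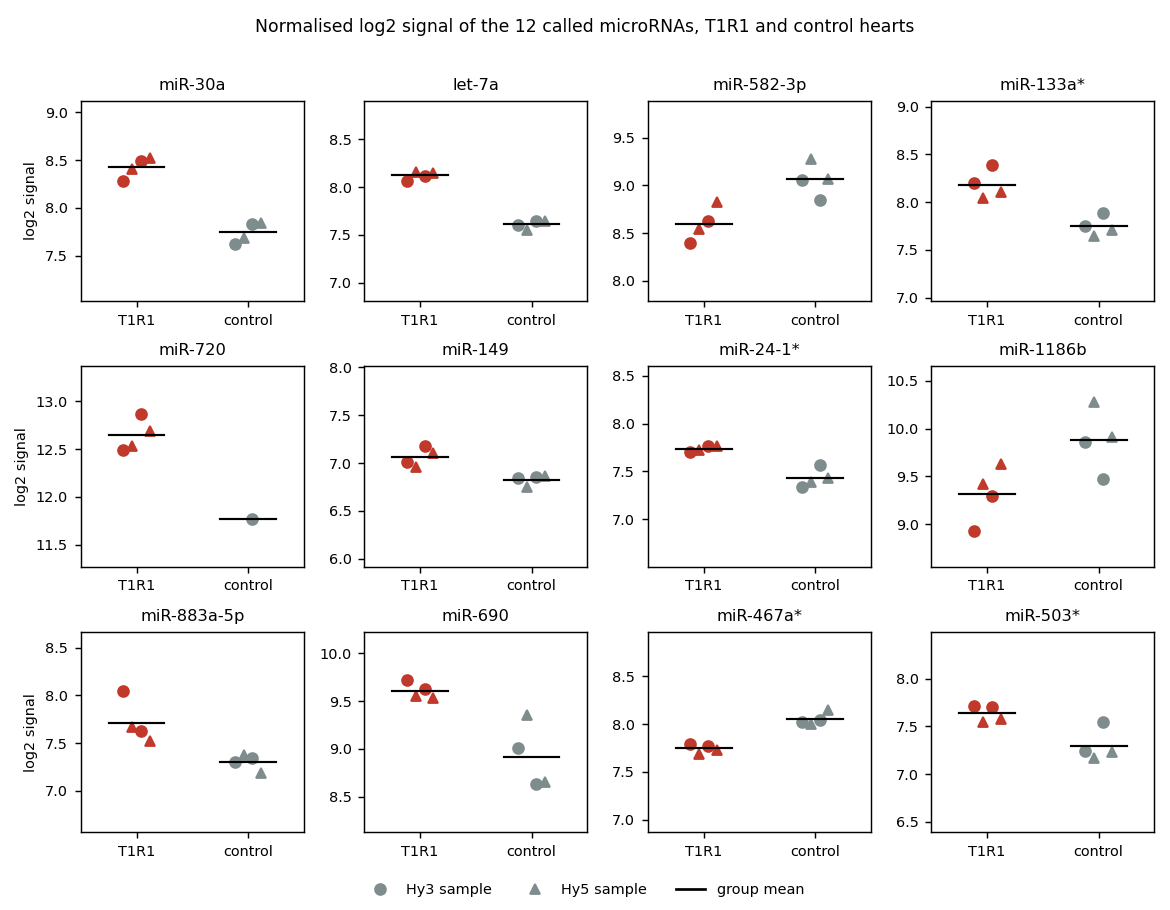
Normalised log2 signal of the 12 called microRNAs in each T1R1 heart and each control heart, with circles for Hy3, triangles for Hy5 and a line at the group mean. The y axes span the same number of log2 units but start at different levels. For miR-30a, the T1R1 hearts sit between 8.28 and 8.52 and the control hearts between 7.62 and 7.84, while miR-1186b and miR-503* overlap and miR-720 has 1 control value.

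miR-30a had log2 signals of 8.28, 8.40, 8.49 and 8.52 in T1R1 replicates 1 to 4, against 7.62, 7.69, 7.84 and 7.84 in control. All 4 T1R1 hearts lay above all 4 control hearts. The difference was 0.68 ± 0.07 (SE; 95% interval 0.53 to 0.83), with a limma adjusted p of 0.000204. It was 0.66 among Hy3 samples and 0.70 among Hy5 samples. Before normalisation, its raw Hy3 signals ranged over 219 to 252 in T1R1 and 116 to 117 in control, and its raw Hy5 signals over 514 to 613 in T1R1 and 243 to 307 in control.

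let-7a read 8.07, 8.16, 8.12 and 8.15 in T1R1, against 7.60, 7.55, 7.65 and 7.64 in control. The groups did not overlap, and their spread was small, with means of 8.12 ± 0.04 and 7.61 ± 0.05 (SD, n = 4 each) in T1R1 and control. The difference was 0.51 ± 0.07 (SE; 95% interval 0.37 to 0.66; limma adjusted p = 0.00118). Its raw signals were also apart in both dyes, at 185 to 189 in T1R1 against 102 to 119 in control for Hy3, and 410 to 446 in T1R1 against 201 to 289 in control for Hy5. Raw signals include spots marked as outliers, which the normalised values leave out. For let-7a these were 3 of 4 spots in control replicate 2 and 1 of 4 in T1R1 replicate 4. With outlier spots kept, the difference was 0.50 (limma adjusted p = 0.0056).

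Star strands made up 4 of the 12 calls and 326 of the 1021 tested probes (31.9%), and 1.23% of them were called, against 1.15% of the other 695 probes. miR-133a*, the partner strand of the muscle microRNA miR-133a, read 8.20, 8.04, 8.38 and 8.11 in T1R1, against 7.75, 7.64, 7.89 and 7.71 in control. The groups did not overlap, and the difference was 0.43 ± 0.07 (limma adjusted p = 0.00742). miR-24-1*, the partner of miR-24 from its chromosome 13 precursor, read 7.71, 7.72, 7.77 and 7.76 in T1R1, against 7.34, 7.38, 7.56 and 7.43 in control. Again no T1R1 heart reached down to a control heart, with a difference of 0.31 ± 0.06 (limma adjusted p = 0.0230). miR-503*, the partner of miR-503, read 7.71, 7.55, 7.71 and 7.58 in T1R1, against 7.24, 7.17, 7.55 and 7.23 in control. Control replicate 3 stood as high as the lowest T1R1 heart, and the difference was 0.34 ± 0.08 (limma adjusted p = 0.0446). miR-467a*, from a rodent repeat-rich cluster, was lower at 7.793, 7.687, 7.773 and 7.732 in T1R1, against 8.028, 8.003, 8.048 and 8.149 in control. These did not overlap either, and the difference was -0.31 ± 0.07 (limma adjusted p = 0.0353), turning to 0.31 under median scaling.

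Among the remaining calls, miR-582-3p read 8.40, 8.54, 8.62 and 8.82 in T1R1, against 9.06, 9.28, 8.84 and 9.07 in control. The highest T1R1 heart lay just under the lowest control heart, and the difference was -0.46 ± 0.08 (limma adjusted p = 0.00742), or 0.46 under median scaling. miR-1186b read 8.93, 9.42, 9.30 and 9.62 in T1R1, against 9.86, 10.28, 9.47 and 9.91 in control. Its groups overlapped at control replicate 3, with a difference of -0.56 ± 0.11 (limma adjusted p = 0.0243) that became 0.53 under median scaling. The raw signals of the 3 lower microRNAs overlapped between T1R1 and control in both dyes.

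miR-690 read 9.72, 9.56, 9.62 and 9.54 in T1R1, against 9.01, 9.36, 8.63 and 8.66 in control. No value overlapped, although the control hearts were spread more widely, and the difference was 0.70 ± 0.15 (limma adjusted p = 0.0353). Outlier marks removed 3 of the 4 spots of miR-690 in T1R1 replicates 3 and 4 and in control replicate 2. They also removed 2 of 4 in T1R1 replicate 2. With outlier spots kept, miR-690 was not called. miR-883a-5p, from an X-linked cluster, read 8.05, 7.67, 7.62 and 7.52 in T1R1, against 7.30, 7.38, 7.34 and 7.18 in control. T1R1 replicate 1 was the highest and the groups did not overlap, with a difference of 0.41 ± 0.09 (limma adjusted p = 0.0345). miR-149 was the dimmest call, at 7.01, 6.96, 7.17 and 7.10 in T1R1, against 6.84, 6.75, 6.85 and 6.86 in control. It was above background in 4 of 4 T1R1 hearts and 3 of 4 control hearts, and the groups did not overlap (difference 0.23 ± 0.04, limma adjusted p = 0.0204, turning negative without a step between arrays or with scaling to spike-ins). miR-720, a name since traced to a transfer RNA fragment, read 12.49, 12.53, 12.87 and 12.69 in T1R1 and 11.77 in control replicate 3. Outlier marks removed every spot of the other control hearts and 3 of the 4 spots of that one. Its difference of 0.90 ± 0.15 (limma adjusted p = 0.0204) therefore rests on 1 spot of 1 control heart, with no spread of its own in control.

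Of the 11 called microRNAs with all 8 values, 9 had groups that did not overlap, 7 higher and 2 lower. Of all 1016 probes with 8 values, 60 (5.91%) did not overlap, 31 higher (3.05%) and 29 lower (2.85%). For each of the 11, both dyes gave the same direction. The calls were made from these same Hy3 and Hy5 values, so this is no separate support for them. In raw signals, the 9 microRNAs called higher lay above control in both dyes without overlap. Of the 200 probes above background, 47 (23.5%) did so and 0 lay below control in both dyes. Over all mouse probes the raw signal was not higher in T1R1: its median was 48.8 and 44.7 in T1R1 against 61.2 and 46.0 in control for Hy3, and 69.0 and 72.5 in T1R1 against 73.1 and 68.1 in control for Hy5. No mouse spot was saturated.

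**Figure D2:**
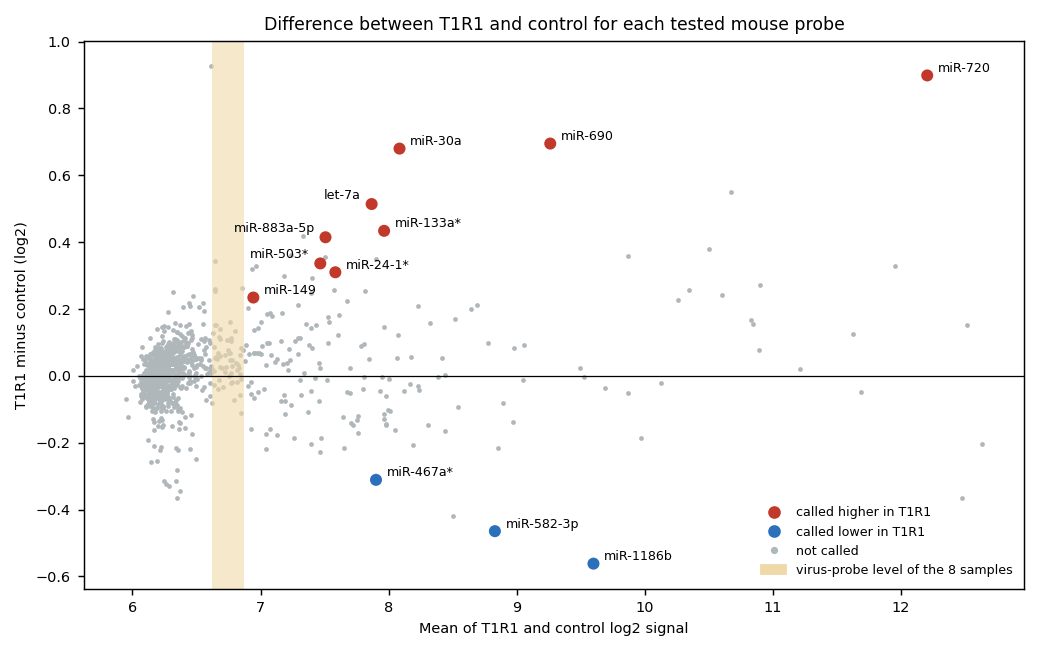
T1R1 minus control in log2 units against the mean log2 signal of both groups, one point per tested mouse probe, with red for called higher and blue for called lower. The shaded band spans the virus-probe level of the 8 samples. The 12 calls lie at or to the right of the band, and most probes lie left of it.

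The share of positive differences varied with the brightness of a probe, without a steady rise or fall from bin to bin. Over all 1021 tested probes, the difference correlated with the mean level at a Spearman rho of 0.287. Below a mean level of 6.2, where probes are at background, 117 of 292 differences (40.1%) were positive. Between 6.2 and 6.5 this was 282 of 462 (61.0%). Between 6.5 and 7 it was 86 of 111 (77.5%), between 7 and 8 it was 57 of 99 (57.6%), between 8 and 9 it was 13 of 29 (44.8%), between 9 and 10 it was 4 of 10, and at 10 or above 14 of 18 (77.8%). Across the 200 probes above background the Hy3 and Hy5 differences correlated at r = 0.547 (rho = 0.487), a description across probes whose Hy3 and Hy5 samples share arrays.

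miR-30a and let-7a can be set beside their relatives, which the array measured with separate probes. Substitutions are counted from 1 at the 5′ end, with the base of miR-30a or let-7a first. The relatives below carry the same seed and differ outside it.

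miR-30c: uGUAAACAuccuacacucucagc
miR-30e: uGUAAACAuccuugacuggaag
let-7b: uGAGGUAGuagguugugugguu
let-7c: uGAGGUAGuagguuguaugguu
let-7d: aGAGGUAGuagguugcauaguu
let-7e: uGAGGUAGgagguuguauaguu
let-7f: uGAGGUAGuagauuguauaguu
let-7i: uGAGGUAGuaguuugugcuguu
miR-98: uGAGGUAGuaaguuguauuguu

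Within the miR-30 family 4 of 5 differences were positive and 1 was called, with a median of 0.154. miR-30e differs from miR-30a by the single substitution C13U and had a difference of -0.02 ± 0.15, with 9.98, 9.88, 10.37 and 10.23 in T1R1 against 10.51, 9.96, 10.10 and 9.98 in control. Its groups overlapped. miR-30c stood at 0.02 ± 0.20 and miR-30b at 0.15 ± 0.15. miR-30b read 10.76, 10.62, 11.23 and 11.07 in T1R1, against 11.33, 10.48, 10.71 and 10.55 in control, with control replicate 1 the highest of all. miR-30d stood at 0.25 ± 0.06, with 7.94, 7.76, 8.11 and 7.96 in T1R1 against 7.68, 7.57, 7.82 and 7.70 in control. Only its control replicate 3 reached above a T1R1 heart, and it missed the threshold (limma adjusted p = 0.0869). All 6 star strands of the family had positive differences and 0 were called, with a median of 0.0739. Only 1 of the 6, miR-30e*, was above background in any of the 8 samples. miR-30e* was the highest of them at 0.29 ± 0.07 (limma adjusted p = 0.0828), with no overlap between groups. miR-30a*, from the same hairpin as miR-30a, stood at 0.02 ± 0.05 and was at background in all 8 samples.

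In the let-7 family 4 of 8 tested differences were positive, 4 were negative and 1 was called, with a median of -0.00548. let-7c (A19G), let-7e (U9G) and let-7f (G12A) each differ from let-7a by 1 base. They had differences of 0.09 ± 0.08, 0.00 ± 0.09 and 0.17 ± 0.08, and the groups of all 3 overlapped. let-7b (A17G, A19G) stood at -0.01 ± 0.18, let-7d (U1A, U16C) at -0.08 ± 0.09 and let-7i (G12U, A17G, U18C, A19U) at -0.14 ± 0.11. miR-98 (G11A, A19U) read 7.90, 7.90, 7.88 and 7.95 in T1R1, against 7.97 to 8.12 in control. All 4 T1R1 hearts lay below the control hearts, yet the difference of -0.14 ± 0.07 was not called (limma adjusted p = 0.551). let-7g had no usable T1R1 value, and its control values were 9.90, 9.64, 9.30 and 9.06. Differences between relatives were not tested, and miR-30a and let-7a were singled out because they were called. let-7a stood at 0.51 against 0.17 for the next, let-7f, but median scaling gave 1.07 for let-7a and 1.02 for let-7c, and called all 8 members. Median scaling likewise gave 1.30 for miR-30a and 1.14 for miR-30b, against 0.68 for miR-30a and 0.25 for miR-30d as reported, and called all 5.

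**Figure D3:**
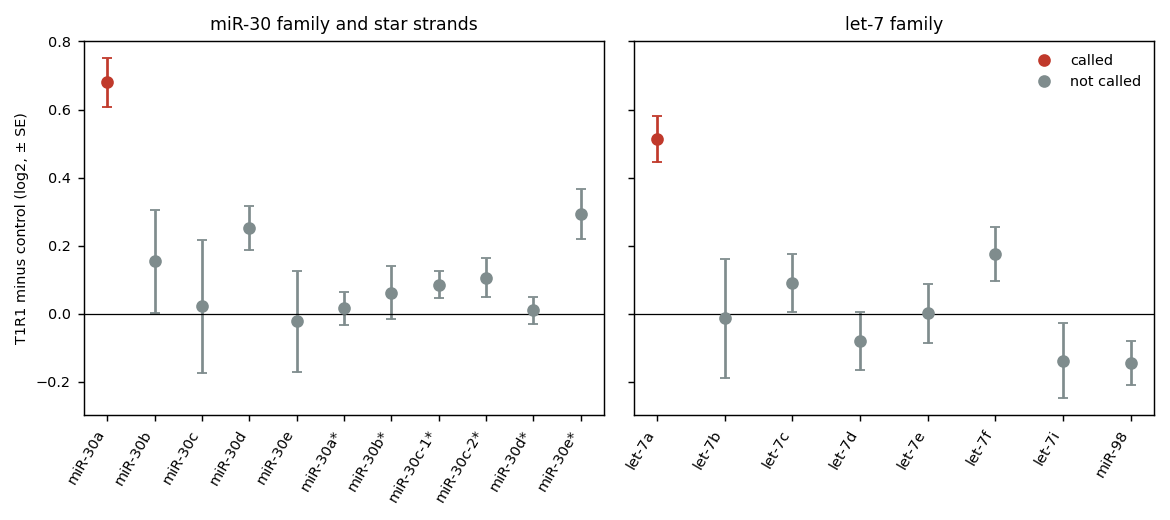
T1R1 minus control in log2 units, with its standard error, for the miR-30 family with its star strands and for the let-7 family. Red marks a called probe. miR-30a at 0.68 and let-7a at 0.51 stand above their relatives, whose differences run between -0.02 and 0.29 on the miR-30 side and between -0.14 and 0.17 on the let-7 side.

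The precursors of several called microRNAs have close neighbours, and their strands were read from the same arrays. Mirlet7f-1 lies 262 bases and Mirlet7d 2065 bases from Mirlet7a-1, and 5 of the 6 probes for these hairpins had positive differences, with let-7a the 1 called. The star probes let-7a-1*/let-7c-2* and let-7f-1* were at background in all 8 samples. let-7d* was above it in 1 of 4 T1R1 hearts and 0 of 4 control hearts. Mir27b and Mir23b lie 424 and 651 bases from Mir24-1. miR-23b, a regulator studied in cardiac hypertrophy, read 10.98, 10.80, 11.06 and 10.95 in T1R1 against 10.84, 10.52, 10.15 and 10.08 in control. Control replicate 1 overlapped T1R1, and the difference of 0.55 ± 0.13 just missed the threshold (limma adjusted p = 0.0563). miR-27b stood at 0.11 ± 0.05, and miR-24 itself at 0.27 ± 0.24. miR-24-2*, which has the seed of miR-24-1* but another precursor, stood at 0.21 ± 0.09 (limma adjusted p = 0.533).

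Mir743 and Mir883b lie 3940 and 9057 bases from Mir883a on the X chromosome. miR-743a stood at 0.32 ± 0.08 (limma adjusted p = 0.0869) and miR-883b-5p at 0.24 ± 0.07 (limma adjusted p = 0.139). The miR-883b-5p groups did not overlap, but it was above background in 1 of 4 T1R1 hearts and 0 of 4 control hearts. The other 7 strands of the cluster besides miR-883a-5p had differences between -0.09 and 0.10 and were at background in all 8 samples. The guide strand miR-503 stood at 0.20 ± 0.15 and was above background in 2 of 4 T1R1 hearts and 0 of 4 control hearts. It was dimmer than miR-503*, with means of 6.66 in T1R1 and 6.46 in control against 7.63 and 7.30. Near Mir503, miR-322 (201 bases away) stood at 0.07 ± 0.06 but was at background in all 8 samples. miR-351 (631 bases away) was above background in all 8 and stood at -0.16 ± 0.06, opposite in sign to miR-503*. For miR-582, miR-149 and miR-467a the partner strands were at background in all 8 samples, with differences of 0.11 ± 0.09, -0.04 ± 0.06 and 0.05 ± 0.04. miR-133a itself stood at 0.38 ± 0.18, in the direction of miR-133a* but with overlapping groups.

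None of the 6 muscle guide strands tested was called, and miR-1, whose name matched no mouse probe, is not analysed here. Of their differences, 3 were positive and 3 negative, with a median of 0.0322. miR-133a, which restrains hypertrophic growth, read 10.52, 10.49, 10.85 and 10.90 in T1R1 against 10.82, 10.35, 10.00 and 10.08 in control. miR-133b stood at 0.33 ± 0.24 and the myosin-encoded miR-208b and miR-499 at -0.02 ± 0.06 and 0.00 ± 0.11. miR-208a-3p, encoded in the alpha-myosin gene, read 12.53, 11.92, 12.60 and 11.98 in T1R1 against 13.63, 12.54 and 11.91 in control replicates 1, 3 and 4. Control replicate 1 was by far its highest, and the difference was -0.37 ± 0.24 over 3 control values. Their star strands had 4 of 5 positive differences and 1 call, that of miR-133a*. Of the 5, 3 were above background in 4 or more of the 8 samples. miR-1a-1* stood at 0.15 ± 0.06 and miR-499* at 0.19 ± 0.08.

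Among 13 remodelling and fibrosis microRNAs, 11 differences were positive and 0 were called, with a median of 0.0700. miR-34a, linked to cardiac ageing and to the p53 response, read 7.44, 7.37, 7.72 and 7.56 in T1R1 against 7.24, 7.20, 7.46 and 7.20 in control. Control replicate 3 overlapped T1R1, and the difference was 0.25 ± 0.08 (limma adjusted p = 0.252). miR-199a-5p stood at 0.35 ± 0.12 (limma adjusted p = 0.308) and the fibroblast-associated miR-21 at -0.16 ± 0.19. The 3 collagen-repressing miR-29 members were all positive, between 0.08 and 0.24, and none was called. Of 13 members of the miR-17 cluster and its paralogues, 12 were positive and 0 called, with a median of 0.0613. Of the 13, 7 were above background in 4 or more of the 8 samples. miR-17 itself had no overlap between groups, at 6.91, 7.50, 6.98 and 7.14 in T1R1 against 6.86, 6.78, 6.78 and 6.79 in control, and was not called (0.33 ± 0.11, limma adjusted p = 0.252).

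No other list held a call, apart from miR-24-1* among the star strands of the miR-23/27/24 clusters (5 of 6 positive, median 0.0586). Their guide strands had 3 of 5 positive differences, with a median of 0.112. The metabolic list had 6 of 7 positive (median 0.0599), and the glucocorticoid and stress axis list 5 of 7 (median 0.0415). The miR-15/16 family was split at 3 positive and 3 negative (median 0.0316), and the miR-26 family at 1 and 1 (median 0.0575). The miR-99/100 and miR-125 families had 4 of 5 positive (median 0.0996). All 4 miR-181 members were positive (median 0.0890) but none was above background in 4 samples. miR-181a had 6.51, 6.52, 6.61 and 6.57 in T1R1 against 6.41, 6.38, 6.22 and 6.32 in control, without overlap (limma adjusted p = 0.0664). In the imprinted Dlk1-Dio3 cluster, 4 of 39 members were above background, and 23 differences were positive and 16 negative (median 0.00606). These medians cover all tested members of a list, including those at background. The median was 0.00958 over all tested mouse probes and 0.0398 over the 200 above background.

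**Figure D4:**
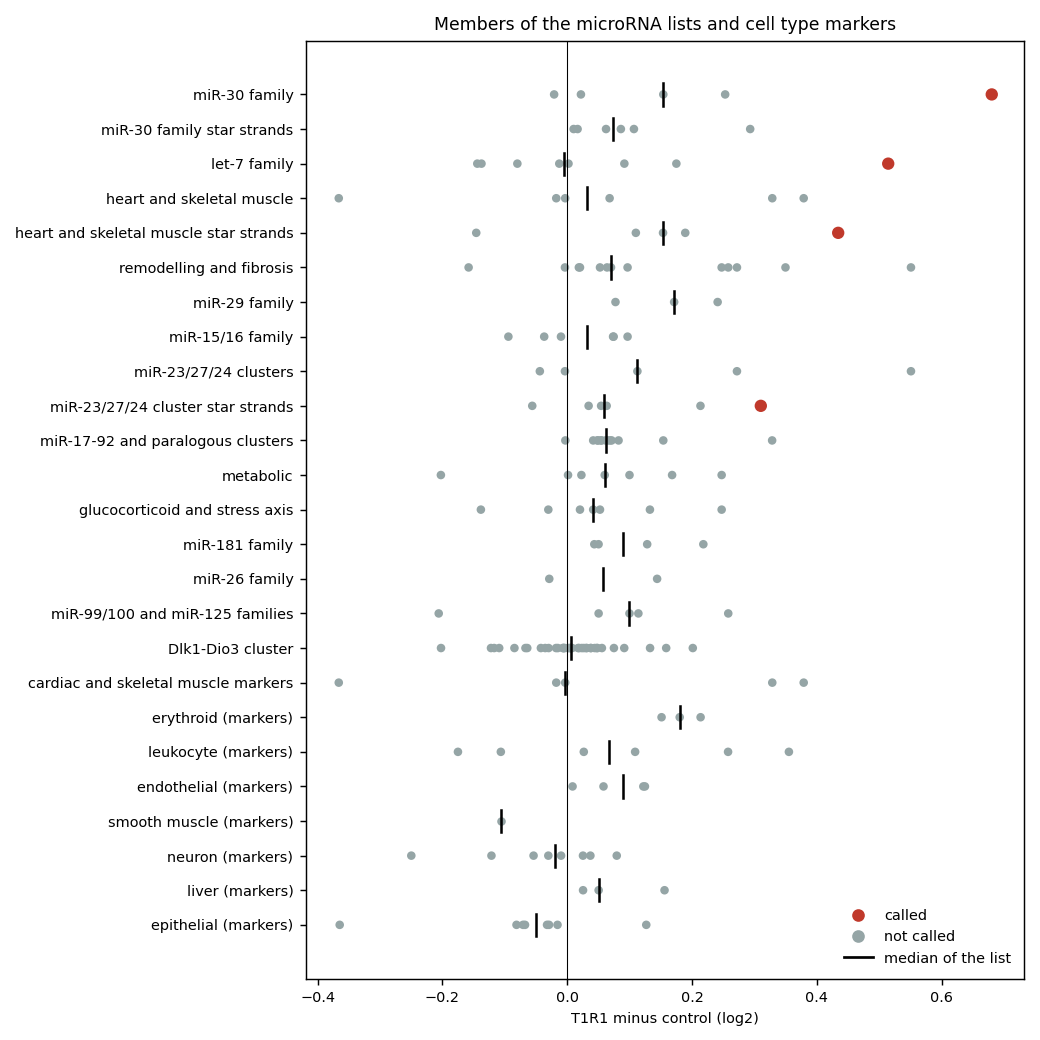
T1R1 minus control in log2 units for each tested member of the microRNA lists and cell type markers, with a bar at the list's median and red for the called members. The 4 red points are miR-24-1*, miR-133a*, let-7a and miR-30a, and no member was called lower.

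Markers of the cells a heart sample can hold gave 0 calls. Their levels were summed per sample over the markers with a value in all 8 samples. Of 5 cardiac and skeletal muscle markers, 4 were above background in all 8 samples, with a missing value counted as above. The other, miR-208b, was above it in 2 of 4 T1R1 hearts and 2 of 4 control hearts. miR-208a-3p lacked a control value and was left out of the sum. The summed level of miR-133a, miR-133b, miR-208b and miR-499 ranged over 5433 to 7734 (median 6644.5) in T1R1 and 4226 to 8438 (median 4692) in control. For miR-133b, control replicate 1 read 12.59, against 11.26 to 11.66 in the other control hearts and 11.79 to 12.41 in T1R1. Erythroid markers (miR-451, miR-144 and miR-486) were positive in 3 of 3 with a median of 0.180. The summed level of miR-144 and miR-486 ranged over 433 to 1144 (median 517) in T1R1 and 425 to 636 (median 510) in control. T1R1 replicate 2 was the highest for miR-144, at 9.96 against 8.11 to 8.57 in the other T1R1 hearts. Leukocyte markers were positive in 4 of 6, with summed levels of 800 to 1077 (median 865) in T1R1 and 771 to 921 (median 822) in control. Among them, miR-155 was at background in all 8 samples. The lymphocyte-enriched miR-150 lay lower in all 4 T1R1 hearts, at 6.95, 6.84, 7.05 and 6.97, against 7.15, 7.15, 7.13 and 7.08 in control, and was not called (-0.18 ± 0.04, limma adjusted p = 0.0731). miR-142-3p stood at 0.36 ± 0.18 and miR-223 at 0.26 ± 0.15, both with overlapping groups. Endothelial markers were positive in 4 of 4 (median 0.0899), with 3256 to 4447 (median 3753) in T1R1 and 2797 to 5455 (median 3127) in control. For miR-126-3p, control replicate 1 read 12.29, against 11.19 to 11.47 in the other control hearts and 11.45 to 11.94 in T1R1. Only miR-126-3p and miR-126-5p were above background in all 8 samples. miR-222 was above it in 2 of 4 T1R1 hearts and 1 of 4 control hearts, and miR-221 in none.

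Smooth muscle was read through miR-145 alone, at -0.11 ± 0.08, because miR-143 had no usable control value. On the linear scale miR-145 ranged over 217 to 292 in T1R1 and 259 to 282 in control. Markers of neurons, liver and epithelium were mostly at background in all 8 samples, in 7 of 8, 2 of 3 and 7 of 8 cases, with miR-124, miR-122 and miR-205 among them. Their summed levels were 590 to 628 in T1R1 and 572 to 717 in control for neuron, 227 to 290 in T1R1 and 232 to 250 in control for liver, and 606 to 647 in T1R1 and 623 to 771 in control for epithelium. The part of any cell type in the called differences was not tested.

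The T1R1 values were then set beside the other exposed groups. T1R1, T2R1 and T3R1 were each compared with the same 4 control hearts, so these comparisons share samples. miR-30a differed from control by 0.68 in T1R1, 0.72 in T2R1 and -0.04 in T3R1, and let-7a by 0.51, 0.77 and 0.10. miR-582-3p differed by -0.46, -0.41 and -0.01 in the same order, miR-133a* by 0.43, 0.42 and 0.01, and miR-690 by 0.70, 0.70 and 0.24. Over the 12 microRNAs, T3R1 minus control ran between -0.06 and 0.31 and T2R1 minus T1R1 between -0.15 and 0.26. T2R1 shares slide run 2 with T1R1, and T3R1 shares run 1 with control. Of the 12, 9 were also called in T2R1 against control (12 of 1022 probes, 1.17%) and 0 in T3R1 against control. Within a run, limma called 0 of 1022 probes for T2R1 against T1R1 (37 at an unadjusted p under 0.05) and 0 of 1022 for T3R1 against control (70 at an unadjusted p under 0.05). Across the runs, T3R1 against T1R1 gave 26 calls (2.54%), 9 higher (0.881%) and 17 lower (1.66%) in T3R1, which included 8 of the 12.

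**Figure D5:**
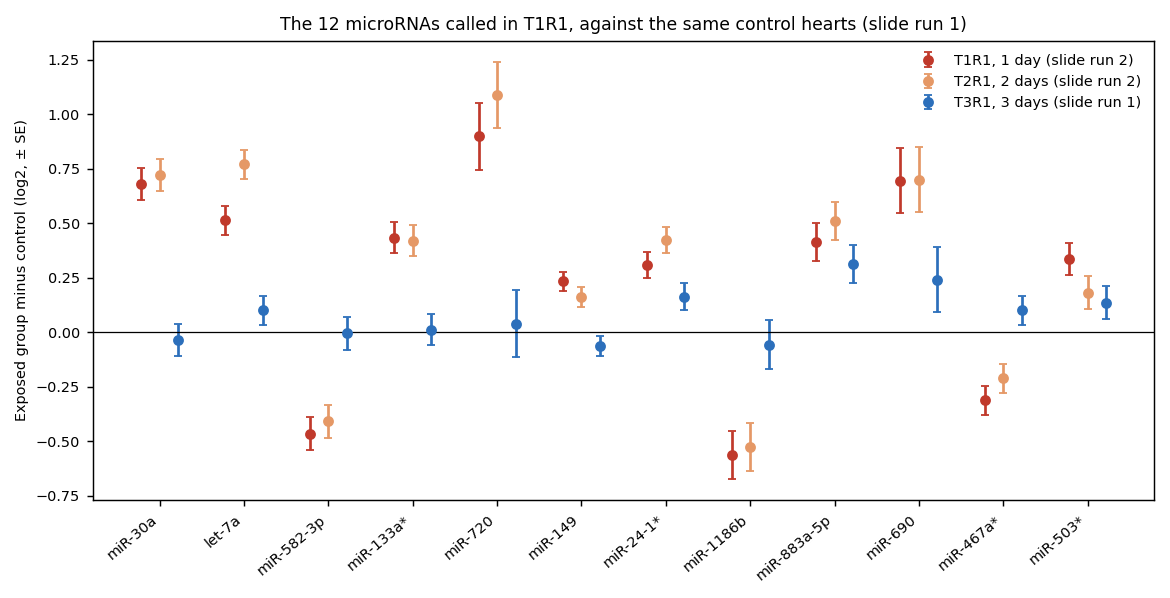
Difference from the same 4 control hearts in log2 units, with its standard error, for the 12 microRNAs called in T1R1, in the groups with 1, 2 and 3 days of exposure. T1R1 and T2R1, both on slides of run 2, lie near each other, while T3R1, on slides of run 1 like control, lies between -0.06 and 0.31.

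Probes that name no mouse microRNA, fitted in the same way, gave 27 calls of 1645 (1.64%), 22 higher (1.34%) and 5 lower (0.304%). Among 1117 probes for microRNAs of other species, 15 were called. The rat probe rno-miR-129-1*/rno-miR-129-2* had the lowest adjusted p, at 7.11, 7.46, 7.31 and 7.52 in T1R1 against 7.98, 8.16, 7.90 and 8.11 in control, a difference of -0.69 ± 0.04 without overlap (limma adjusted p = 9.7e-07). The rat probe rno-miR-352 was higher by 0.55 ± 0.06, with 8.33 to 8.38 in T1R1 and 7.72 to 7.88 in control. Human probes hsa-miR-378c and hsa-miR-23c were higher by 0.37 ± 0.07 and 0.33 ± 0.08. Of 233 probes without a name, 10 were called, all higher, and 1 of 56 mouse virus probes, mcmv-miR-m88-1, was higher by 0.24 ± 0.04. Among 62 spike-ins, synthetic RNAs whose level does not come from the heart, spike_control_v2_4 was called (0.75 ± 0.15) on 2 control values. The 46 spike-ins above background had a median of -0.0111, with 23 positive. limma called 0 of 143 human virus probes (6 at an unadjusted p under 0.05) and 0 of 24 small reference RNAs, whose median was 0.0687.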

How the data were processed

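Total RNA of 16 mouse hearts was hybridised to 8 arrays with locked nucleic acid probes. Per the file headers, the authors made an intensity per spot and channel with Agilent Feature Extraction 9.5.3.1, and the unsubtracted mean signal and median local background were used here. The deposited log2 value table and the authors' processed intensity served as alternatives. The deposited log2 table was made by a method not given in the sources used here. All columns have one median and the centring is unknown, while log2 scale and direction were read from the match to each channel's processed signal.

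R 4.3.3 was used with limma 3.58.1 and version 1.17.8 of the data.table package. Background was corrected by normexp (offset 50), dyes by loess with control and outlier spots at weight 0, and arrays by Aquantile. Each channel was a sample. Spots marked as outliers were left out (1.95% to 5.52% of spots in the T1R1 and control samples), and the up to 4 spots of a probe were averaged. The marks left 2 of 1023 mouse probes without a testable difference, let-7g and miR-143, and 5 with missing values. A model with group and dye was fitted over all 16 samples, with the array as a random block (correlation 0.246), and moderated by eBayes (2.90 prior and a median of 11 residual degrees of freedom). P values were adjusted by Benjamini-Hochberg over all tested mouse probes, and limma stands behind every adjusted p. Probes of no mouse microRNA were fitted and adjusted apart. The fit was tested on simulated data. The number of arrays, 2 a group, limits the precision.

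The members, the lists of microRNAs and the markers were chosen with earlier results of these data known. The microRNAs named are the 12 called, the next 10 by p, up to 4 members of each list by p, defining markers, partner strands and seed mates of called microRNAs. Cluster neighbours, the level bins and the probes of no mouse microRNA were chosen after values were seen. Of 1023 probe names, 339 matched a RefSeq mature sequence. The human virus level replaced the scanner's own well-above-background mark, which only 2 of 32736 mouse spot values lacked. Other arrays, scalings, spot filters, models and left-out samples were tried. Labels name individual hearts; p values measure the spread between these samples, which may be partly technical.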

Additional observations from a re-analysis of the deposited data

Results flagged for a closer look

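Among 259 groups of 4 samples of a named microRNA, 8 (3.09%) held a value far from the other 3 by Dixon's test, where chance gives about 1 in 20. In T1R1 this was miR-3473 in replicate 1, at 7.787. In control, replicate 3 stood apart for miR-34a (7.4612, high), miR-194 (6.259, low), miR-218 (6.2365, high) and miR-155 (6.2793, low). Control replicate 1 stood apart for miR-17 (6.8588) and miR-200a (7.6026), and control replicate 4 for miR-142-3p (7.0212, low). All are log2 signals.

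The difference T3R1 minus T1R1, which equals the difference of their effects against the shared control, was called by limma for 19 of the named microRNAs, 8 of them among the 12 called in T1R1. It was lower in T3R1 for miR-30a (-0.7158), miR-720 (-0.8587), miR-149 (-0.2974), let-7a (-0.4131) and miR-133a* (-0.4222). It was higher in T3R1 for miR-582-3p (0.4594), miR-467a* (0.412) and miR-1186b (0.5053). Of the other 11, miR-138-2* was higher (0.2648). Lower were miR-30e* (-0.516), miR-30d (-0.303), miR-146a (-0.3263), miR-23b (-0.6458), miR-27b (-0.2169), miR-24-2* (-0.376), miR-499* (-0.3383), miR-1a-1* (-0.2468), miR-26a (-0.2714) and miR-181a (-0.2159). T3R1 and T1R1 lie on different slide runs, so run and group cannot be told apart in these differences.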

How the results depend on the processing

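The count of called mouse probes, 12 as reported, depended on the processing. Values in brackets after a count are, in order, how many of the 12 were kept and the calls among probes of no mouse microRNA. It was 1 with a normexp offset of 0 (1 and 3), 7 with the extraction software's processed signals (2 and 7), 2 with quantile normalization (2 and 11) and 1 with the deposited log2 values (1 and 4). It was 7 over the probes above background in 4 of 16 samples (6 kept), 3 with only the 8 samples of T1R1 and control (3 and 11), 19 with no array block, 23 with array weights (41 outside mouse), and 4 with the higher array correlation found over probes above background, 0.627 (4 and 2). With the 2 samples of an array averaged it was 0 (62 at an unadjusted p under 0.05; 0 and 4), with Hy3 samples only 0 (96 unadjusted; 0 and 0) and with Hy5 samples only 0 (93 unadjusted; 0 and 1). These fits have fewer samples or residual degrees of freedom. Array-wide scaling moved whole groups. With no step between arrays there were 607 calls, 7 higher and 600 lower (3 kept, 1129), around a median of -0.588, and with median scaling 201, 195 higher and 6 lower (9 kept in direction, 218). Scaling to bright spike-ins, chosen after seeing the data, gave 906, 9 higher and 897 lower (4 and 1496), around a median of -0.808. Relative to the median of all mouse probes these 3 scalings put miR-30a at 1.27, let-7a at 1.04, miR-1186b at 0.50, miR-582-3p at 0.43 and miR-467a* at 0.28. The 3 differ only by a shift common to all probes of a sample. Each of these values is therefore the same in all 3 by construction, and does not count as agreement between scalings. The cause was not tested.

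Reversed values were 0.31 for miR-467a*, 0.53 for miR-1186b and 0.46 for miR-582-3p under median scaling. miR-149 reversed to -0.13 with no step between arrays, and under spike-in scaling miR-149 stood at -0.35, miR-24-1* at -0.035 and miR-503* at -0.046. The difference in probes above background, 16 at the 95th percentile, was 9.75 at the 90th (exact permutation p = 0.743) and reversed to -3.5 at the 99th (exact permutation p = 0.457).

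Leaving out single samples gave 4 to 20 calls, with 4 to 12 of the 12 kept and 15 to 36 calls outside mouse. The lowest were 4 without T1R1 replicate 4 and 6 without T1R1 replicate 2, and the highest 20 without control replicate 1, while 7 of the 12 were kept without control replicate 2. All 16 such fits called miR-582-3p, miR-133a*, let-7a and miR-30a. Fits without a T2R1 or T3R1 sample left the T1R1 minus control differences of miR-30a and let-7a unchanged. Those fits tested only the estimate of spread. miR-149 and miR-24-1* were called in 13, miR-1186b in 12, miR-883a-5p in 8, miR-467a* in 7, miR-690 in 5 and miR-503* in 3 of the 16, and miR-720 in 14 of 15. Leaving out whole arrays, chosen after seeing the data, gave 6 calls without T1R1 replicates 1 and 2 (5 kept), 5 without T1R1 replicates 3 and 4 (5 kept), 45 without control replicates 1 and 2, and 12 without control replicates 3 and 4. The lone array left is then assumed to vary like the other groups. Over the 24 settings that leave out no single sample, miR-30a kept its call in 21, let-7a in 17, miR-133a* and miR-582-3p in 12, miR-149 in 11, miR-24-1* and miR-883a-5p in 10, miR-690 in 9, miR-467a* and miR-1186b in 7 and miR-503* in 5, and miR-720 in 14 of 21.

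Whether replicate numbers pair the hearts is not known. Deviations of same-numbered samples correlated at -0.04, 0.34, 0.47 and 0.05, which does not settle it, because each replicate number went with a single dye. With the replicate block there were 11 calls, 10 of the 12, and 26 outside mouse. T2R1 against T1R1 and T3R1 against control gave 0 calls with the block (42 and 76 unadjusted) and with only their own 8 samples (51 and 46).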
